A study of Homo sapiens with 2 samples.

Results

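The genes described here are the metallothioneins of Hep3B cells, the zinc-sensing transcription factor gene MTF1 and the zinc exporter gene SLC30A1. They were taken by symbol from a list that was made with earlier results of these data known. Of 7 symbols sought (MT2A, MT1E, MT1F, MT1G, MT1X, MTF1 and SLC30A1), 6 had a value among the 11511 genes of the deposited table with values in both libraries, and MT1F was not analysed here. Hep3B is an established line of human hepatocellular carcinoma cells, obtained from ATCC and grown in DMEM with serum. RNA-seq was made from untreated cells (the control) and from cells given A4368, a compound known here only by its code, at 25 µM for 24 h, with 1 library of each. The vehicle is not given in the sources used here, and neither is the depth of the libraries. Expression is given as FPKM, the number of fragments per kilobase of a transcript, relative to all fragments mapped in that library. With 1 library per group no spread between cultures can be measured, so each difference below is one between these libraries and carries no p-value. In bulk RNA, fewer cells with a transcript and less of it per cell cannot be told apart.

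Metallothioneins are small cytosolic proteins that hold zinc, copper and cadmium through clusters of cysteine side chains. Free zinc in the cell binds the zinc fingers of the MTF1 protein, which then occupies metal response elements in the promoters of metallothionein genes and of SLC30A1. SLC30A1, also called ZnT1, carries zinc out of the cell across the plasma membrane, so this set joins a sensor, a buffer and an exit route. The liver is a main site of metallothionein synthesis, where the genes also respond to glucocorticoids, inflammatory cytokines and heavy metals.

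The metallothionein genes lie side by side on chromosome 16, while MTF1 and SLC30A1 are on chromosome 1 (RefSeq, GRCh38.p14). That cluster holds 11 protein-coding metallothionein genes in RefSeq, of which 4 were measured. Their coding sequences are shown first, because their likeness bears on how reads are divided between them. For each gene, the first coding transcript with a coding sequence as long as that of MT2A was taken. Equal length was thus set by this choice, MT1G-202 stood for MT1G, and the likeness below holds for these transcripts. The sequences shown are 186 bases long including the stop codon. They hold 20 cysteine codons (TGC or TGT) among 61 codons (GENCODE release 29). Capitals mark each base that is unlike the base of MT2A at that place, so MT2A has none.
MT2A: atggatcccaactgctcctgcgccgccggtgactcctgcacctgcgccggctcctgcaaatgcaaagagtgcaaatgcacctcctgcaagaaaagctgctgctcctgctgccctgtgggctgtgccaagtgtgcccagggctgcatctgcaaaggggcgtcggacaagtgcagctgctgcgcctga
MT1E: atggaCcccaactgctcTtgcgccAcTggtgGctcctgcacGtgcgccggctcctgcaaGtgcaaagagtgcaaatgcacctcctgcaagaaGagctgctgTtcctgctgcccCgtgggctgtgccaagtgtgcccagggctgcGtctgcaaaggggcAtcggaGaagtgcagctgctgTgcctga
MT1G: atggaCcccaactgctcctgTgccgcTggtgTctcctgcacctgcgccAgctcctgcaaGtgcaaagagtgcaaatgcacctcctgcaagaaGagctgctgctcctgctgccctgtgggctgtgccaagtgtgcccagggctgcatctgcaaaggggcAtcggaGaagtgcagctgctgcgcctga
MT1X: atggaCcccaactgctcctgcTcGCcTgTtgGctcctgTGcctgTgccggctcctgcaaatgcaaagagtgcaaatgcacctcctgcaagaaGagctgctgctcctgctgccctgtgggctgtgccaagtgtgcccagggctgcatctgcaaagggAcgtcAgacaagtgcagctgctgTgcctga
MT1G was the closest to MT2A, with 9 differences (95.2% identity), and MT1E and MT1X had 14 each (92.5%). MT1G and MT1X were identical over a run of 96 bases, and MT1E and MT1G over a run of 52.

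Sharing was also measured over whole transcripts. The distinct 31-base words of all annotated transcripts of a gene, on either strand, were looked up in the transcripts of every other gene. MT1G shared 23.3% of its words with other genes, most of all with MT1H (14.3%) and MT1X (9.55%). MT1E shared 15.6%, led by MT1M with 8.99%, and MT2A shared 7.25%. MT1X shared 19.8% in total, but 15.97% of its words were in AC026461.1, another gene annotated in GENCODE, and 5.30% in metallothionein genes or pseudogenes. MTF1 shared 2.13% and SLC30A1 none of its 5444 words. Reads from the shared stretches can be given to either gene, which makes the values of single metallothionein genes uncertain. The shares do not measure how uncertain, because their base is the words of all annotated transcripts. MT1X had 1829 such words, while its longest coding transcript had 538 bases.

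The promoters of 4 of the genes (MT2A, MT1X, MTF1 and SLC30A1) could be read from RefSeq, and MT1E, MT1F and MT1G had no entry in the table used. The 250 bases before the start were searched on both strands for the core of the metal response element, as TGCACNC or TGCGCNC, with overlapping matches counted as 1 site. They are shown for the genes with a match, in capitals where the core matched. The sequences run on the strand of the gene at chr16:56608334-56608583 (MT2A, plus strand), chr16:56682220-56682469 (MT1X, plus strand) and chr1:211579162-211579411 (SLC30A1, minus strand) of GRCh38.p14.
MT2A: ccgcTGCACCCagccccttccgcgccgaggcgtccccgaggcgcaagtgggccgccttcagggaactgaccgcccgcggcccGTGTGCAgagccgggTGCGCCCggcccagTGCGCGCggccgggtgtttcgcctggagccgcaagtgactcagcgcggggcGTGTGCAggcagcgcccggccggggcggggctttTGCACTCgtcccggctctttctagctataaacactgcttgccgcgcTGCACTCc
MT1X: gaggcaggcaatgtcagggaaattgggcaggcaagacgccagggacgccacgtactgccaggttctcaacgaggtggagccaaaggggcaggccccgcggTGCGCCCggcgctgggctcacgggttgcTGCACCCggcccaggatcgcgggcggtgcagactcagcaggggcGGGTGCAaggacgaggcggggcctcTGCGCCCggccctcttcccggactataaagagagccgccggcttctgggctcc
SLC30A1: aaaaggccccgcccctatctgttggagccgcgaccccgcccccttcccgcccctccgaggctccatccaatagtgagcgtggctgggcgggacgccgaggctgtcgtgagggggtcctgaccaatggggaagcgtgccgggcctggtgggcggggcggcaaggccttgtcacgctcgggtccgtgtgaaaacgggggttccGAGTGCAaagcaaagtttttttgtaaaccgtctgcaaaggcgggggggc
MT2A held 7 sites, MT1X held 4 and SLC30A1 held 1, while MTF1 held 0. At least 1 site was found for 28.5% of 27305 gene symbols with a promoter of this length, and 3 or more for 1.29%. For this background, a symbol with several entries was counted by the entry with the most sites. Each member above was read from its first entry. Each match is a match of letters in this window and not evidence of binding.

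**Figure D1:**
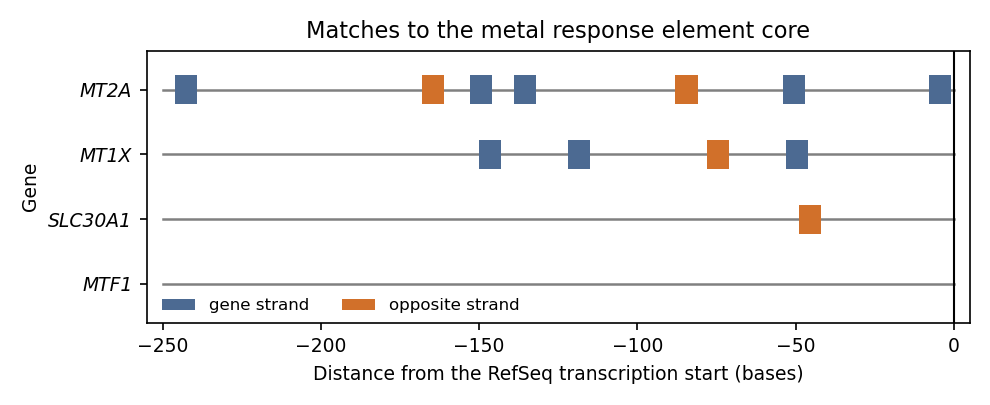
Places of matches to the metal response element core in the 250 bases before the RefSeq start of MT2A, MT1X, SLC30A1 and MTF1 (x axis, distance from the start in bases). Blue boxes lie on the strand of the gene and orange boxes on the opposite strand. MT2A holds 7, MT1X 4, SLC30A1 1 and MTF1 0.

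The sensor gene MTF1 was the lowest of the 6 measured genes. It stood at 1.66 FPKM in untreated cells and 2.003 FPKM with A4368, a 1.21-fold higher value. Its log2 ratio, taken here and below as log2((A4368 FPKM + 1)/(control FPKM + 1)), was 0.18. This scale understates the change of low genes. For each member, the 500 genes nearest in mean FPKM were used to show how much genes of that level varied between the libraries. Around MTF1 they had an SD of 0.37 log2 units, and 56.8% of them differed at least as far in either direction.

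MT2A, the most abundant metallothionein here, was nearly level between the libraries. It was at 41.7 FPKM in untreated cells and 39.1 FPKM with A4368, which is 1.07-fold lower, with a log2 ratio of -0.09. Of the 500 genes nearest in level, 60.4% differed at least as far. MT2A lay above 79.5% of genes in the control and above 78.4% with A4368.

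The MT1 genes were lower than MT2A and did not share a direction. MT1E had 2.10 FPKM in untreated cells and 2.82 FPKM with A4368, a log2 ratio of 0.30 (1.34-fold higher). MT1G had 6.87 and 7.54 FPKM in the same order, a log2 ratio of 0.12. MT1X had 5.83 FPKM in untreated cells and 4.38 FPKM with A4368, a log2 ratio of -0.35 (1.33-fold lower). MT1E and MT1G were thus higher in the A4368 library, and MT1X was lower. Of the 500 genes nearest in level, 27.8% differed at least as far as MT1E, 56.0% as MT1G and 80 of the 500 as MT1X.

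The differences between single MT1 genes nearly vanished in their sum. MT1E, MT1G and MT1X together had 14.8 FPKM in untreated cells and 14.7 FPKM with A4368, a difference of 0.442%. With MT2A added, the 4 metallothioneins had 56.5 and 53.9 FPKM, a log2 ratio of -0.07. MT2A made up 73.8% of this sum in the control and 72.7% with A4368. MT1E shared 1.67% of its words with MT1X, and MT1X shared 0.98% of its words with MT1E. For comparison, MT1G shared 9.55% of its words with MT1X, and MT1X shared 4.21% with MT1G. Whether the opposite directions of MT1E and MT1X came from how reads were divided between like genes was not tested. The sums leave out MT1H and MT1M, the leading partners of MT1G and MT1E in shared words. FPKM is scaled by transcript length, so reads moved between genes of unlike length need not leave a sum unchanged. MT1G and MT1X, the pair with the longest identical run, summed to 12.7 FPKM in untreated cells and 11.9 FPKM with A4368.

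Away from the cluster, TESMIN, which encodes a metallothionein-like protein known from the testis, was at 5.08 FPKM in untreated cells and 3.37 FPKM with A4368. Its log2 ratio of -0.48 did not reach 1.5-fold on the scale with the pseudocount. No further gene of the list of other metallothioneins was analysed here.

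The exporter gene SLC30A1 had the highest ratio of the set. It was at 9.26 FPKM in untreated cells and 12.5 FPKM with A4368, a log2 ratio of 0.39 (1.35-fold higher). The 500 genes nearest in level had an SD of 0.23, and 42 of them (8.4%) differed at least as far. Over all genes its ratio was above 95.7% of the ratios. Its transcript of 5474 bases shared none of its words with another gene.

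**Figure D2:**
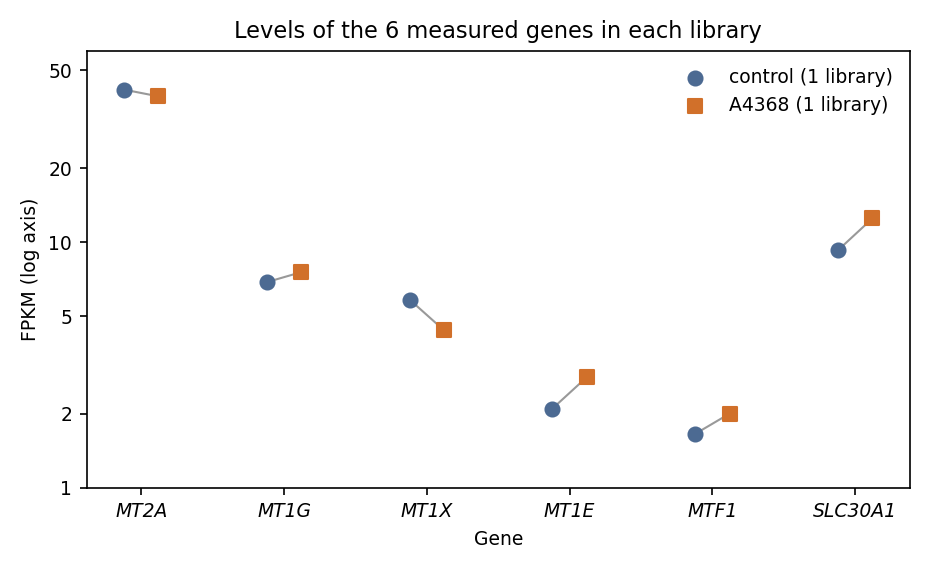
FPKM (y axis, log scale) of the 6 measured genes in the control library (blue circles) and the A4368 library (orange squares), 1 library each, joined by a line per gene. MT2A is far above the others at 41.7 and 39.1 FPKM, and MT1X and MT2A are the genes with lower values in the A4368 library.

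Considered as a set, 4 of the 6 genes were higher with A4368 and 2 were lower, where 52.0% of the 11238 genes averaging 1 FPKM or more were higher. Their median log2 ratio was 0.15, beside 0.0098 over all these genes. Lower values made up 48.0% of all genes. None of the 6 differed by 1.5-fold (0.58 log2 units with the pseudocount), a limit that 3.19% of all genes passed, 1.08% upward and 2.12% downward. None differed by 2-fold either, which 0.552% of all genes did. The median was 0.015 when genes averaging under 5 FPKM, here MT1E and MTF1, were left out. The order of the levels was the same in both libraries, with MT2A first, then SLC30A1, MT1G, MT1X, MT1E and MTF1. Without replicates it cannot be said which neighbours in that order differ beyond their spread.

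**Figure D3:**
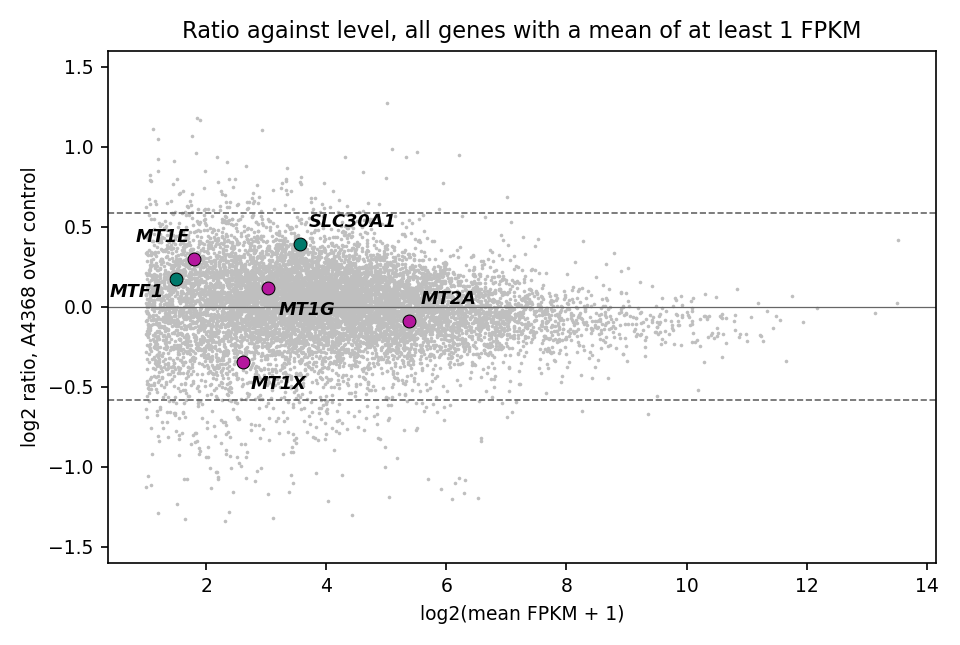
Log2 ratio of A4368 over control (y axis) against log2(mean FPKM + 1) (x axis) for genes averaging 1 FPKM or more, with metallothioneins in magenta and MTF1 and SLC30A1 in green. Dashed lines mark 1.5-fold, and 14 genes beyond 1.6 log2 units are not drawn. All 6 named genes lie between the dashed lines.

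Genes with short transcripts varied more between the libraries. The longest coding transcripts of the measured metallothioneins in GENCODE had between 538 (MT1X) and 786 bases (MT2A). Among genes with a mean of 1 to 50 FPKM, the 180 whose longest coding transcript had at most 1000 bases showed an SD of 0.59 log2 units. The 8917 with longer transcripts showed an SD of 0.26. The 1.5-fold limit was passed by 13.3% of the short and 3.23% of the longer genes. The metallothionein ratios, from -0.35 to 0.30, were all smaller than the SD of the short genes. By level, that SD was 0.61 at 1 to 5 FPKM, 0.73 at 5 to 20 and 0.38 at 20 to 50, the range of MT2A. Far genes can widen an SD, so it does not give the difference of a typical short gene.

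**Figure D4:**
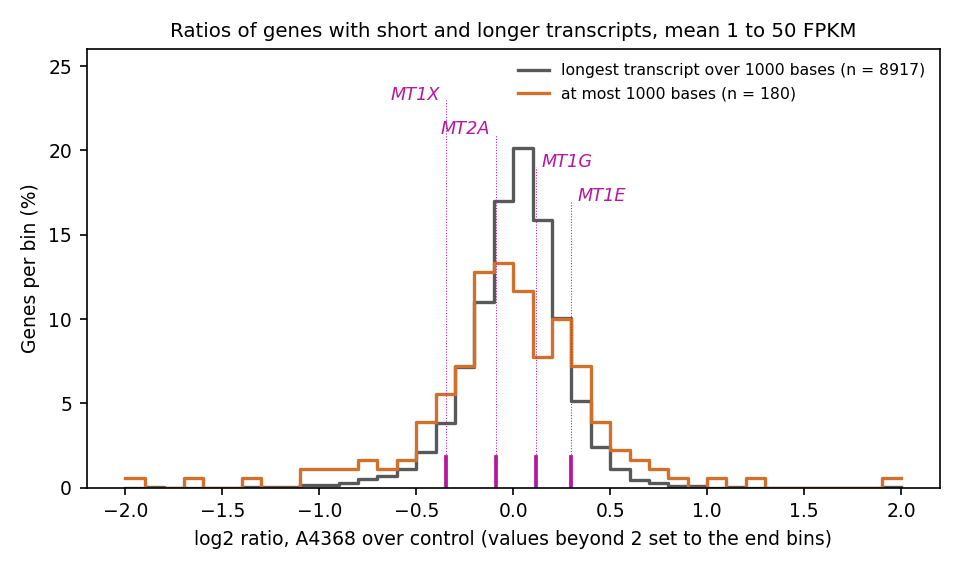
Distribution of log2 ratios (x axis, in bins of 0.1) as percent of genes (y axis) for genes with a mean of 1 to 50 FPKM whose longest coding transcript has at most 1000 bases (orange, 180 genes) or more (grey, 8917 genes). Magenta lines mark MT1X, MT2A, MT1G and MT1E, which all lie closer to 0 than the orange genes' SD of 0.59.

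The members that carry the element did not share a direction. MT2A with 7 sites had a log2 ratio of -0.09 and MT1X with 4 had -0.35, whereas SLC30A1 with 1 site had 0.39. Among 9295 genes with a promoter sequence, counted by their entry with the most sites, 189 held 3 or more. Their median log2 ratio was 0.03. The 5493 genes without a site had a median of 0.01. In the first group 57.1% had higher values, in the second 52.6%. Of the 2801 genes with 1 site 52.1% were higher (median 0.01), and of the 812 with 2 sites 49.1% (median -0.004).

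Other zinc exporters had small differences. Most carriers of this family, though not all, move zinc out of the cytosol into vesicles, the Golgi apparatus or other compartments, or out of the cell. Of the 5 measured besides SLC30A1, 4 were higher with A4368 and 1 was lower, where 52.0% of all genes were higher. None differed by 1.5-fold, which 3.19% of all genes did. The median log2 ratio of the 5 was 0.14. SLC30A9 had 28.3 FPKM in untreated cells and 34.0 FPKM with A4368, a log2 ratio of 0.26. SLC30A10, better known as a manganese exporter, was at 22.2 and 25.3 FPKM (0.18). SLC30A6, which acts in the Golgi apparatus, was at 14.4 and 15.97 FPKM (0.14). SLC30A7, another Golgi carrier, was the lower one, at 7.96 and 6.55 FPKM (-0.25). SLC30A1 thus had the highest ratio among the 6 measured exporters of its family.

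Zinc importers, which bring zinc into the cytosol, were split evenly. Of 12 measured, 6 were higher and 6 lower, where 52.0% of all genes were higher. None differed by 1.5-fold, and the median log2 ratio of the 12 was -0.0029. SLC39A3 stood at 37.1 FPKM in untreated cells and 50.1 FPKM with A4368, a log2 ratio of 0.42. SLC39A13, a carrier of intracellular membranes, was at 9.88 and 13.4 FPKM (0.41). These ratios were close to that of SLC30A1 in size. SLC39A5 was lower, at 43.3 and 33.2 FPKM (-0.37), and SLC39A9 was at 31.7 and 35.5 FPKM (0.16). SLC39A3 shares 11.5% of its words with other genes. Of 15 zinc transporters other than SLC30A1 with a promoter sequence, 9 held no site of the element and 6 held 1, by the entry with the most sites. Counted in the same way, 59.1% of the 9295 kept genes with a promoter held no site and 30.1% held 1.

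Copper genes were included because metallothioneins also bind copper. Of 14 measured, 10 were higher and 4 lower, where 52.0% of all genes were higher. The median log2 ratio of the 14 was 0.06. CP, the gene of the copper-carrying plasma protein ceruloplasmin, passed the 1.5-fold limit, at 12.2 FPKM in untreated cells and 7.53 FPKM with A4368 (-0.63). CP shares 25.7% of its words with other genes. The limit was passed downward by 2.12% of all genes. The copper importer gene SLC31A1 was at 14.9 and 18.4 FPKM (0.29). The copper chaperone gene CCS was at 34.1 and 39.5 FPKM (0.21), and COMMD1, a regulator of copper export, at 35.3 and 41.1 FPKM (0.22).

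Genes that heavy metals, oxidants or heat are known to induce together with metallothioneins were also split. Of 13 measured, 6 were higher and 7 lower, with a median of -0.05, where 52.0% of all genes were higher. SRXN1, the sulfiredoxin gene, was at 19.2 FPKM in untreated cells and 30.7 FPKM with A4368 (0.65) and was the member past 1.5-fold. It shares 84.9% of its words with other genes. Upward, 1.08% of all genes passed this limit. The cystine transporter gene SLC7A11 was at 6.72 and 9.11 FPKM (0.39). The glutathione synthesis gene GCLC was at 27.3 and 34.2 FPKM (0.31), and the thioredoxin reductase gene TXNRD1 at 98.1 and 120 FPKM (0.29). Of 6 heat shock protein and DNAJ genes on the list, 5 were lower, each by less than 1.5-fold, where 48.0% of all genes were lower. HSPA1A and HSPA1B, which are among the 6, share most of their sequence.

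Glucocorticoid-responsive genes were mostly lower. Of 10 measured, 8 were lower, where 48.0% of all genes were, and the median was -0.23. The 2 higher ones were FKBP5 (0.12) and KLF9 (0.04), and of the lower ones TSC22D3 had -0.17 and PER1 -0.15. A limit of 1.5-fold downward, passed by 2.12% of all genes, was passed by 1 gene of the list. This was the kinase gene SGK1, at 15.6 FPKM in untreated cells and 9.01 FPKM with A4368 (-0.73). NFKBIA, which encodes the inhibitor of NF-kappaB, was at 39.8 and 28.98 FPKM (-0.45). The transcription factor gene CEBPD was at 21.4 and 15.6 FPKM (-0.43), and the phosphatase gene DUSP1 at 29.9 and 22.1 FPKM (-0.42). These 3 genes also respond to inflammatory and growth signals. Transcription regulators known to act on metallothionein genes besides MTF1 differed little, with log2 ratios from -0.08 (NFE2L2) to 0.08 (SP1). Of these 6, 4 were higher, where 52.0% of all genes were.

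Genes on either side of the metallothionein cluster were measured as neighbours. Of 6 with values, 5 were higher and 1 lower, where 52.0% of all genes were higher. The median of the 6 was 0.13, and none passed 1.5-fold, which 3.19% of all genes did. BBS2, a gene of the cilium, was at 6.53 FPKM in untreated cells and 9.35 FPKM with A4368 (0.46). NUP93, a nuclear pore gene, was at 29.3 and 25.9 FPKM (-0.18). HERPUD1, a gene of endoplasmic reticulum protein disposal, was at 45.7 and 50.5 FPKM (0.14).

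**Figure D5:**
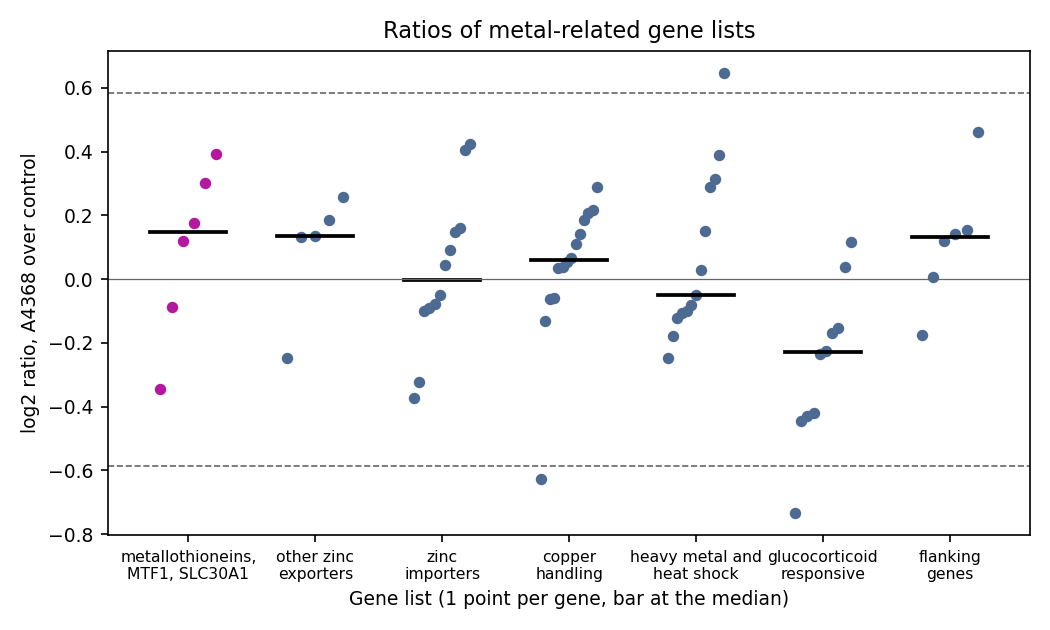
Log2 ratio of A4368 over control (y axis) for each measured gene of 7 lists (x axis), 1 point per gene, with a bar at the median of the list. Dashed lines mark 1.5-fold. The 6 genes of the first list span -0.35 (MT1X) to 0.39 (SLC30A1) around a median of 0.15, and the glucocorticoid-responsive list has the lowest median, -0.23.

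By level in both libraries, the nearest genes to MT2A were MRPS9, PTPRK and PPID, at a distance of 0.01 log2 units each by rounding. Nearest to SLC30A1 were SNAPC2 (0.01), ABCC10 and ZDHHC24 (0.03 each). The distance is Euclidean over log2(FPKM + 1) in the 2 libraries, among 8761 other genes averaging 5 FPKM or more, and with so few libraries it describes level and ratio alone.

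The libraries bore the marks of a hepatoma line. All 10 hepatocyte and hepatoma markers had values, ALB at 9183 FPKM in untreated cells and 8930 FPKM with A4368 and AFP at 368 and 295 FPKM. Their summed level was 24251 and 23981 FPKM. Of 5 endothelial markers none had a value, of 6 stellate and fibroblast markers 1 had one (LUM), and of 6 leukocyte markers 3 did (CD14, CD68 and LYZ). LUM was at 17.9 FPKM in untreated cells and 11.9 FPKM with A4368, and the 3 leukocyte markers summed to 50.1 and 39.9 FPKM. The lysozyme gene LYZ passed the 1.5-fold limit downward, as 2.12% of all genes did, at 17.6 and 9.48 FPKM (-0.83). CD68 (-0.10) and CD14 (-0.01) were nearly level. The part of these markers in the ratios above was not tested.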

How the data were processed

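RNA-seq values of 1 control and 1 A4368 library of Hep3B cells were used. Per the submitters' processing notes, the tools were TopHat2 2.0.12 with Bowtie2 2.2.3 and Cufflinks, and the build was hg19. The deposited table names no unit, and its values were read as FPKM made by the authors with Cufflinks. The annotation, the strand setting and the rule that removed low genes (no mean was under 0.496 FPKM) are not stated in these sources. Of 24302 lines, 11511 held values. The log2 ratio used a pseudocount of 1 FPKM, and the 11238 genes averaging 1 FPKM or more were kept. Depth is unknown, so no interval is given. With 1 library per group no test was possible. The ratio calculation was tested on simulated data.

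Named genes were all members, up to 4 genes of each list that averaged 5 FPKM or more and had the largest absolute log2 ratio, the 3 nearest genes in level for MT2A and SLC30A1, and ALB and AFP. A gene that this rule names is not reported here. Further names stand for sequence partners or exceptions within a count. Members and lists were chosen with earlier results of these data known, and the comparison by transcript length, the word sharing and the promoter search were added after the values were seen. Promoters (RefSeq, GRCh38.p14) matched 82.7% of kept genes by symbol or synonym. Transcripts came from GENCODE release 29, with a length for 97.3% of genes with a mean of 1 to 50 FPKM. Both are of another build than hg19, and no position was carried over. Alternatives were pseudocounts of 0.1 and 5, no filter or one at 5 FPKM, subtracting the median ratio of genes averaging 10 FPKM or more, scaling the libraries to equal sums once the 50 highest genes were removed, and sums without each metallothionein. Python 3.11.15, numpy 2.4.6 and pandas 2.3.3 were used.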

Additional observations from a re-analysis of the deposited data

How the results depend on the processing

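The ratios of the 6 genes and of the metallothionein sum kept their direction under the centring and the rescaling, and the sum also without each metallothionein in turn. A pseudocount cannot turn the direction of a ratio, so those settings bear on size alone. The rescaling left the number of higher genes in each metal-related list as reported. Pseudocounts changed the size for low genes. With 0.1 the log2 ratio of MT1E was 0.41, and with 5 it was 0.14, that of MT1X -0.21 and that of MTF1 0.073. Among genes averaging 5 FPKM or more, 2 of 4 members were higher and their median was 0.015. The median of the zinc importers, -0.0029 as reported, was 0.044 both after rescaling and at that filter. TESMIN, the gene measured on the list of other metallothioneins (5.08 FPKM in the control, 3.37 FPKM with A4368), had -0.48 as reported, -0.58 with a pseudocount of 0.1 and -0.27 with 5. At 5 FPKM the glucocorticoid list had a median of -0.42 with 1 gene higher. Over all genes, 121 were 1.5-fold higher and 238 lower, 259 and 369 with a pseudocount of 0.1, 20 and 78 with 5, and 58 and 140 at 5 FPKM. For 2-fold the counts were 13 higher and 49 lower as reported, 38 and 102 with a pseudocount of 0.1, 2 and 15 with 5, and 2 and 28 at 5 FPKM. Fewer genes are kept at the stricter filter, and a larger pseudocount shrinks the ratios of low genes by construction. The rescaling multiplies all FPKM of a library by 1 factor, and because of the pseudocount it shifts the ratios of low genes less. That of MTF1 went from 0.18 to 0.21, and that of MT2A from -0.09 to -0.04. The median over all genes was 0.0098 as reported and 0.055 after rescaling, and the importer median moved with that shift. No paired analysis was possible because each group has 1 library. Unknown depth limits what MT1E and MTF1, near 2 FPKM, can show.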
